A study of Mus musculus with 4 samples.

Results

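Genes that encode the core proteins of microRNA processing and silencing were followed in control and *Cnot3*-cKO ID4-EGFP+ spermatogonia. The members were chosen by gene symbol as *Drosha*, *Dgcr8*, *Dicer1*, *Ago1*, *Ago2*, *Ago3*, *Ago4*, *Tnrc6a*, *Tnrc6b* and *Tnrc6c*, and all 10 were present among the 54920 genes listed in the deposited counts. RNA was sequenced from cells sorted for ID4-EGFP, a reporter that enriches for spermatogonial stem cells (SSCs), from mouse testes at postnatal day 8. Control mice, labelled wild-type, were described in the study's methods as *Cnot3* flox/flox animals with the *Id4-eGfp* reporter and without Cre. *Cnot3*-cKO mice carried the same alleles together with *Ddx4*-creER, a tamoxifen-inducible Cre driven by a germ cell promoter. Both groups were injected with 4-OHT, the active metabolite of tamoxifen, from postnatal day 1 to day 3, so that exposure to the drug was shared and the presence of Cre was not. Each group had 2 libraries, with 40957899 and 43378493 counted reads in the controls and 22192964 and 28019626 in the *Cnot3*-cKO libraries. A figure legend of the study gives 3 biological replicates for this RNA-seq, whereas the deposited files hold 2 libraries per group, and all values here rest on those. The labels do not say whether replicates came from separate animals, so p-values may not extend from these 4 samples to other animals.

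MicroRNAs are cut out of long primary transcripts in the nucleus by the Microprocessor, in which DROSHA is the nuclease and DGCR8 the RNA-binding partner, and the exported hairpin is then cut by DICER1. The mature strand is loaded into an Argonaute protein, which pairs with target mRNAs mainly through the seed of the microRNA, and TNRC6 (GW182) proteins join the Argonaute to the CCR4-NOT deadenylase, of which CNOT3 is a subunit. Germ cells of the mouse testis need DICER1 for normal sperm formation, and they also use the separate PIWI branch of the Argonaute family. The libraries were made from total RNA and give no measurement of mature microRNAs or of proteins.

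*Cnot3* itself, the targeted gene, was measured at 58.6 and 50.2 CPM (reads relative to the library total after TMM scaling) in the controls and at 19.2 and 19.9 CPM in the *Cnot3*-cKO libraries. Both *Cnot3*-cKO libraries were below both controls. The log2 fold change of *Cnot3*-cKO over control was -1.48 (standard error 0.13, n = 2 libraries per group), with a Benjamini-Hochberg adjusted p of 1.48e-05 in edgeR's quasi-likelihood test, written as edgeR adjusted p from here on. The p-values were adjusted over the 23952 genes that passed the expression filter, and all 10 members were among them. With 2 libraries against 2, an exact two-sided permutation test of a single gene cannot go below 0.333, so each adjusted p rests on the variation fitted across genes.

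Among the 10 members, *Drosha* was higher and *Dicer1*, *Ago3* and *Tnrc6c* were lower in *Cnot3*-cKO spermatogonia at an edgeR adjusted p under 0.01, and 6 members did not pass the test. By the same rule 6.21% of all tested genes were higher (1488 genes) and 4.70% were lower (1125 genes). With a fold change above 2 required as well, as in the thresholds of the study, 4.03% of tested genes were higher and 0.735% were lower, while 0 of the 10 members were called by edgeR. DESeq2 also called 0 members above 2-fold, while over all genes it called 922 higher and 184 lower by that rule. An unadjusted edgeR p under 0.05 was found in 7 members, and 0 of these exceeded 2-fold. Over all 23952 tested genes, an unadjusted edgeR p of 0.0466 ranked 7683 by p, and one of 0.0506 ranked 7891. Such p-values were thus common among all tested genes too. In 7 of the members both *Cnot3*-cKO libraries lay below both controls, an arrangement found in 28.6% of tested genes, and in 2 members both lay above, as in 30.5% of tested genes. Leaving out either control library gave 5 lower members, whereas leaving out *Cnot3*-cKO replicate 1 or replicate 2 gave 3 and 2 and ended the call of *Drosha*. The lower genes among all tested became 2286 and 1769 with control replicate 1 or 2 left out, and 811 and 792 with *Cnot3*-cKO replicate 1 or 2 left out. A lone library was assumed to vary like the pair of the other group, and the *Cnot3*-cKO libraries were the closer pair (chi-square per degree of freedom 6.77, against 20.7 in the more deeply read controls), so calls gained without a control rest on that closer pair. The median log2 fold change of the 10 members was -0.42, beside 0.01 for all tested genes.

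**Figure D1:**
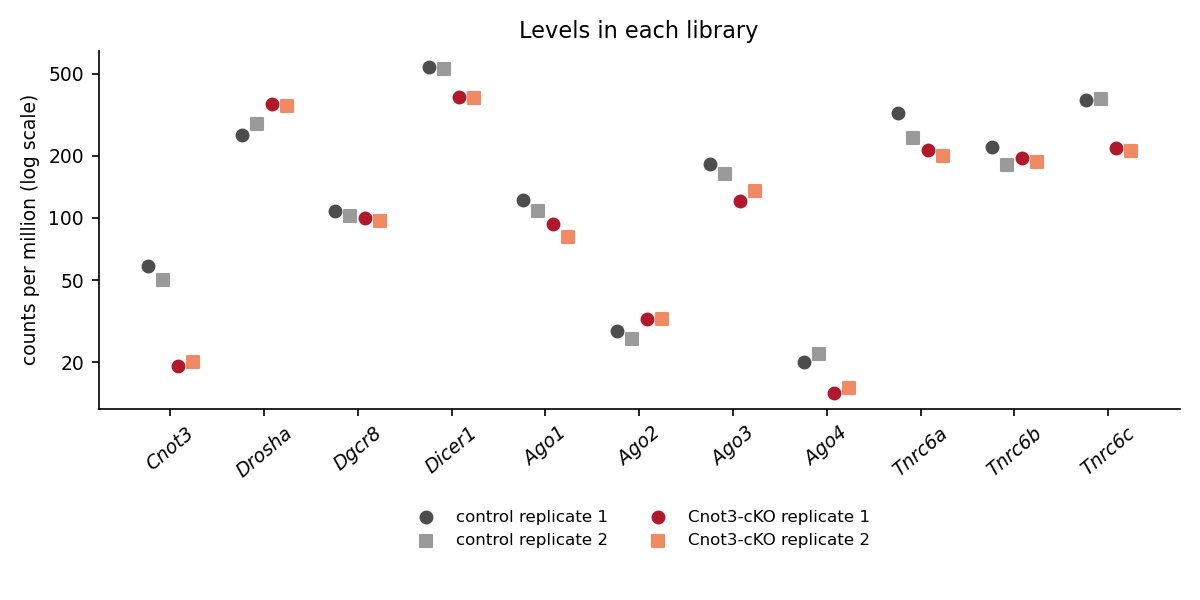
CPM (log axis) of *Cnot3* and the 10 members in each of the 4 libraries, with 1 point per library and grey for control, red and orange for *Cnot3*-cKO. *Tnrc6c* and *Dicer1* show tight pairs, with the *Cnot3*-cKO points near 215 and 384 CPM on average and the control points near 375 and 533 CPM, while the points of *Tnrc6b* overlap.

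*Drosha*, the nuclease that makes the first cut in the primary transcript, was at 252.9 and 285.1 CPM in the controls and at 359.1 and 347.7 CPM in the *Cnot3*-cKO libraries. Both *Cnot3*-cKO libraries were above both controls, and the controls differed from each other more than the *Cnot3*-cKO libraries did. *Drosha* rose by a log2 fold change of 0.39 (standard error 0.08, edgeR adjusted p = 0.00618), or 1.31-fold. The call was lost without *Cnot3*-cKO replicate 1 (log2 fold change 0.36, edgeR adjusted p = 0.0639) and without *Cnot3*-cKO replicate 2 (0.41, edgeR adjusted p = 0.0269). The gene lies at chr15:12824815-12935291 on the forward strand of GRCm38, the assembly also called mm10.

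*Dgcr8* encodes the partner that holds the hairpin for DROSHA. It was at 107.9 and 102.7 CPM in the controls and at 100.2 and 96.8 CPM in the *Cnot3*-cKO libraries. The *Cnot3*-cKO libraries were the lower ones, but the gap between the groups was smaller than the distance between replicates in either group. The log2 fold change was -0.10 (95% interval -0.29 to 0.10, edgeR adjusted p = 0.520). Reads of *Drosha* per read of *Dgcr8* were 2.34 and 2.78 in the controls and 3.58 and 3.59 in the *Cnot3*-cKO libraries, so the transcripts of the Microprocessor partners were present in different proportions in the groups.

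The *Dgcr8* transcript is itself known as a substrate of the Microprocessor, because it carries hairpins that resemble primary microRNAs. A hairpin of 79 bases, *Mir1306*, lies in a coding exon of *Dgcr8* on the reverse strand, at chr16:18284239-18284317 of GRCm38, within the gene at chr16:18253948-18289246. Its RefSeq sequence is shown because it joins the processing step to one of the members, and the capitals mark the mature 5p and 3p strands.
Mir1306 hairpin: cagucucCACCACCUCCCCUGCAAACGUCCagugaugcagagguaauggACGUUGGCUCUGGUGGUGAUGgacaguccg
*Mir1306* was listed with 0 reads in all 4 libraries, which allows a level of up to 0.135 CPM in the shallowest of them. How reads shared by *Mir1306* and *Dgcr8* were assigned was not stated, so this 0 does not measure the hairpin apart from its host.

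*Dicer1*, which encodes the enzyme that cuts the exported hairpin, was among the members with the most reads. Its levels were 540.0 and 525.6 CPM in the controls and 386.6 and 381.8 CPM in the *Cnot3*-cKO libraries. The groups did not overlap, and replicates within each group were close to each other. *Dicer1* fell by 0.47 on the log2 scale (standard error 0.08, edgeR adjusted p = 0.00095), to 0.721 of the control level. The edgeR adjusted p was 0.0109 without *Cnot3*-cKO replicate 2, where the log2 fold change was -0.47. *Dicer1* lies at chr12:104687742-104751952 on the reverse strand. Reads of *Drosha* per read of *Dicer1* were 0.468 and 0.542 in the controls and 0.929 and 0.911 in the *Cnot3*-cKO libraries, so the balance of nuclear and cytoplasmic nuclease transcripts differed between the groups in each library.

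The 4 Argonaute genes encode the proteins that hold the mature microRNA, and *Ago2* alone among them encodes a strong slicing activity. *Ago3* was at 181.8 and 164.2 CPM in the controls and at 121.5 and 135.5 CPM in the *Cnot3*-cKO libraries. Both *Cnot3*-cKO libraries were below both controls. *Ago3* fell by 0.43 on the log2 scale (standard error 0.09, edgeR adjusted p = 0.00659). Without *Cnot3*-cKO replicate 1 its log2 fold change was -0.36 and the edgeR adjusted p was 0.0862.

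*Ago1* and *Ago4* are the neighbours of *Ago3*, all on the reverse strand of chromosome 4 within 201.8 kb, from 126331704 to 126533472. *Ago1* was at 122.5 and 108.2 CPM in the controls and at 93.2 and 81.0 CPM in the *Cnot3*-cKO libraries. *Ago4* was at 20.01 and 21.9 CPM in the controls and at 14.2 and 14.9 CPM in the *Cnot3*-cKO libraries. For both genes the *Cnot3*-cKO libraries were the lower pair, without overlap. Neither passed the threshold, with a log2 fold change of -0.41 for *Ago1* (edgeR adjusted p = 0.0155) and -0.52 for *Ago4* (edgeR adjusted p = 0.0292). With 1 library left out, the log2 fold change of *Ago1* ranged from -0.31 (without *Cnot3*-cKO replicate 2) to -0.52 (without *Cnot3*-cKO replicate 1). That of *Ago4* ranged from -0.47 (without control replicate 2) to -0.60 (without control replicate 1). With libraries scaled to pan-germ cell genes, *Ago1* was at -0.29 (edgeR adjusted p = 0.1485) and *Ago4* at -0.41 (edgeR adjusted p = 0.0996). DESeq2, the tool of the study, called *Ago1* lower (-0.43, DESeq2 adjusted p = 0.00267) and did not call *Ago4*.

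*Ago2*, on chromosome 15, was the Argonaute with the opposite sign. It was at 28.3 and 25.9 CPM in the controls and at 32.2 and 32.3 CPM in the *Cnot3*-cKO libraries, with the *Cnot3*-cKO libraries above. The log2 fold change was 0.25 (95% interval -0.03 to 0.53, edgeR adjusted p = 0.200), which did not pass the test. Reads of *Ago3* per read of *Ago2* were 6.42 and 6.33 in the controls and 3.78 and 4.20 in the *Cnot3*-cKO libraries.

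TNRC6 proteins are the scaffolds through which an Argonaute reaches the deadenylases. *Tnrc6c*, at chr11:117654289-117763439 on the forward strand, was at 373.0 and 376.4 CPM in the controls and at 218.1 and 212.5 CPM in the *Cnot3*-cKO libraries. The groups were far apart relative to the distance between replicates. *Tnrc6c* fell by 0.80 on the log2 scale (standard error 0.08, edgeR adjusted p = 3.27e-05), to 0.575 of the control level, and among the members it had the smallest p. It ranked 158 by p among the 23952 tested genes.

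*Tnrc6a* was at 321.7 and 244.8 CPM in the controls and at 214.2 and 199.1 CPM in the *Cnot3*-cKO libraries. The *Cnot3*-cKO libraries were lower, while the controls differed widely from each other. Its log2 fold change of -0.46 (standard error 0.11) did not pass the threshold (edgeR adjusted p = 0.0137), but did without control replicate 2 (-0.65, edgeR adjusted p = 1.3e-11) or without *Cnot3*-cKO replicate 1 (-0.52, edgeR adjusted p = 0.00526). Without control replicate 1 it was -0.26. DESeq2 called *Tnrc6a* lower (-0.48, DESeq2 adjusted p = 0.000994).

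*Tnrc6b* was at 221.2 and 180.4 CPM in the controls and at 195.1 and 187.8 CPM in the *Cnot3*-cKO libraries. Both *Cnot3*-cKO values fell between the controls. The log2 fold change was -0.07 (95% interval -0.29 to 0.15, edgeR adjusted p = 0.697), and it ran from 0.07 without control replicate 1 to -0.22 without control replicate 2. Reads of *Tnrc6c* per read of *Tnrc6b* were 1.69 and 2.09 in the controls and 1.12 and 1.13 in the *Cnot3*-cKO libraries.

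The members' directions were examined under 4 other scalings of the libraries. *Drosha* and *Ago2* were positive, and *Dicer1*, *Ago1*, *Ago3*, *Ago4*, *Tnrc6a* and *Tnrc6c* negative, under all of them, whereas *Dgcr8* and *Tnrc6b* turned positive (0.02 and 0.04) when libraries were scaled to the sum of pan-germ cell genes. A scaling moves all genes by nearly the same amount, here by -0.01 to 0.12 in the median log2 fold change of all tested genes. Members further from 0 than that could not change sign, and values relative to the median hardly move. Pan-germ cell scaling moved the median up by 0.12, to 0.13, and relative to this median *Dgcr8* was at -0.11 and *Tnrc6b* at -0.08. *Dicer1* (-0.36, edgeR adjusted p = 0.0352) and *Ago3* (-0.32, edgeR adjusted p = 0.0743) were then no longer called, and relative to the median they were at -0.48 and -0.44. *Ago3* also missed the threshold with upper quartile scaling (-0.39, edgeR adjusted p = 0.0172) and with library size only (-0.36, edgeR adjusted p = 0.0168). Over all tested genes, 56.9% of the calls were of higher genes with TMM scaling, compared with 55.6% with RLE scaling, 65.0% with upper quartile scaling, 68.9% with library size only and 80.5% with pan-germ cell scaling.

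**Figure D2:**
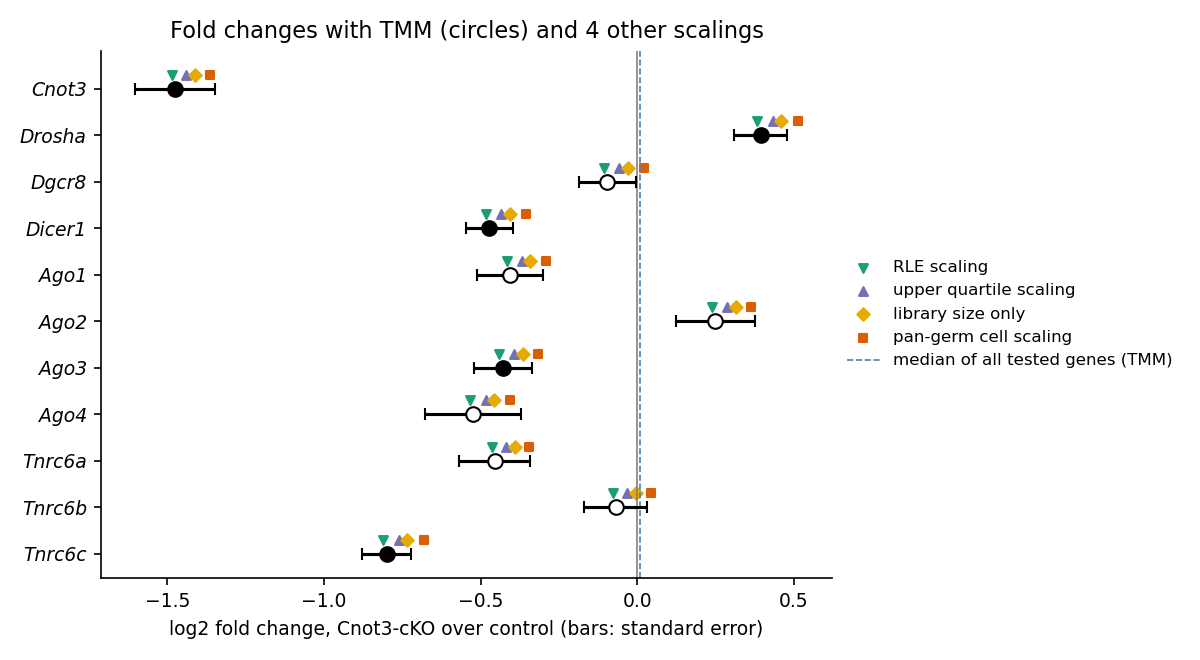
Log2 fold change of *Cnot3*-cKO over control for *Cnot3* and the 10 members, as circles with bars of 1 standard error under TMM scaling (filled where the adjusted p was under 0.01), and small symbols for 4 other scalings. *Tnrc6c* stays between -0.81 and -0.68 under these scalings, and *Dgcr8* and *Tnrc6b* cross 0 with pan-germ cell scaling.

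Levels were compared between genes as CPM per kb of annotated exon. In the controls *Drosha* was the highest member at 45.3 ± 3.83 (SD, n = 2), followed by *Dicer1* at 31.8 ± 0.607 and *Tnrc6c* at 29.2 ± 0.190. *Tnrc6a* (22.3 ± 4.28), *Ago1* (14.2 ± 1.24), *Dgcr8* (13.7 ± 0.480), *Ago3* (10.4 ± 0.749) and *Tnrc6b* (8.48 ± 1.22) came next. *Ago4* (3.01 ± 0.189) and *Ago2* (1.93 ± 0.120) were lowest. The control libraries of *Ago1* and *Dgcr8* overlapped, so their order was not resolved. By the length of the longest transcript instead, the mean of *Tnrc6a* (34.6) stood above that of *Tnrc6c* (32.3), *Dgcr8* (24.4) above *Ago1* (15.96), and *Tnrc6b* (11.6) above *Ago3* (11.1). The control libraries of *Tnrc6a* and *Tnrc6c* overlapped by that length, as did those of *Tnrc6b* and *Ago3*, so these orders were not resolved.

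In the same unit of CPM per kb, the 4 Argonaute genes summed to 31.0 and 28.2 in the controls and to 23.1 and 22.6 in the *Cnot3*-cKO libraries. The sum was lower in both *Cnot3*-cKO libraries than in both controls. *Ago2* made up 6.52% and 6.54% of this sum in the controls and 9.91% and 10.2% in the *Cnot3*-cKO libraries, whereas the share of *Ago1*, the largest, was 48.7% and 47.2% against 49.6% and 44.1%. The 3 *Tnrc6* genes summed to 63.7 and 56.2 in the controls and to 42.1 and 40.1 in the *Cnot3*-cKO libraries. *Tnrc6c* went from 45.6% and 52.2% of that sum to 40.4% and 41.2%, and *Tnrc6b* from 14.7% and 13.6% to 19.6% and 19.8%. Both families were lower in total, with larger shares of *Ago2* and *Tnrc6b*.

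**Figure D3:**
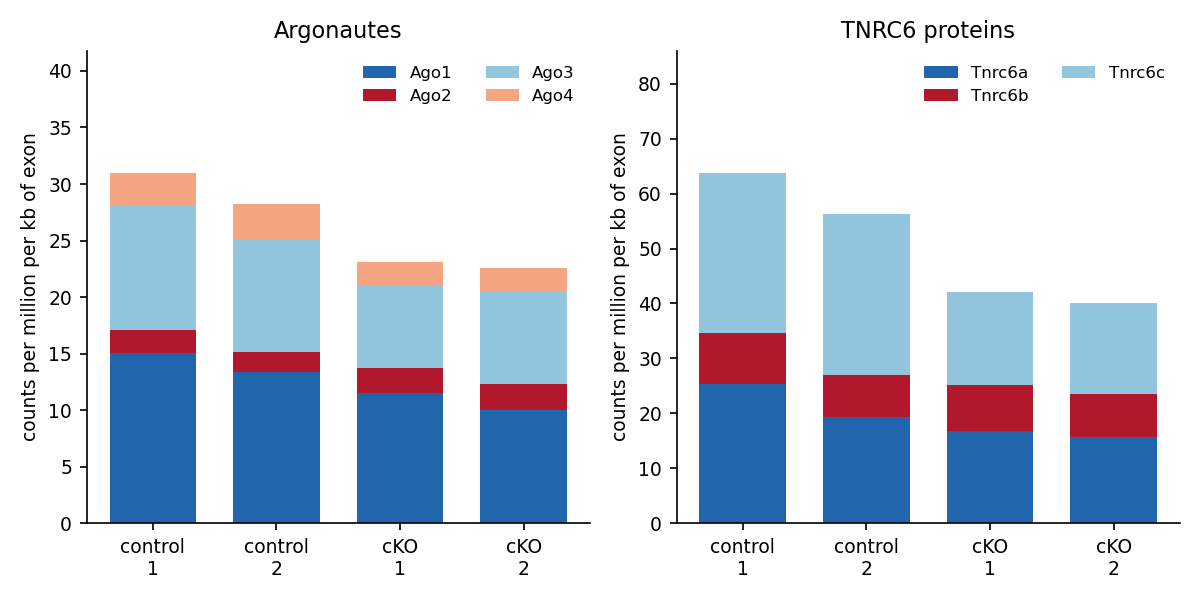
Levels of the Argonaute genes (left) and *Tnrc6* genes (right) in CPM per kb of annotated exon, stacked for each library from 0. The Argonaute bars fall from 31.0 and 28.2 to 23.1 and 22.6, and the *Tnrc6* bars from 63.7 and 56.2 to 42.1 and 40.1.

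The genes whose centred log2 CPM over the 4 libraries lay nearest to that of *Tnrc6c*, by Euclidean distance among 1567 genes of like abundance, were *Rab11fip4* (distance 0.103), *Glce* (0.125) and *Uhrf1bp1* (0.129). Their log2 fold changes were -0.77, -0.71 and -0.67.

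Around these members, 17 cofactors of processing and export were examined. *Prkra*, which encodes the DICER1 partner PACT, was at 7.70 and 9.25 CPM in the controls and at 20.7 and 19.4 CPM in the *Cnot3*-cKO libraries. The *Cnot3*-cKO libraries were more than 2-fold above the controls. *Prkra* rose by a log2 fold change of 1.24 (standard error 0.17, edgeR adjusted p = 0.000419). The other genes called in this list were lower and were *Erh* (log2 fold change -0.66), which encodes a cofactor of the Microprocessor, the cap-binding gene *Ncbp2* (-0.63) and *Khsrp* (-0.46), with 13 of 17 not called. The median of the list was -0.17. *Erh* was not called without *Cnot3*-cKO replicate 2 (-0.55, edgeR adjusted p = 0.0177), nor *Khsrp* without *Cnot3*-cKO replicate 1 (-0.49, edgeR adjusted p = 0.0175) or replicate 2 (-0.45, edgeR adjusted p = 0.0342). *Tarbp2*, which encodes the other double-stranded RNA-binding partner of DICER1, was named after its value had been seen. It was at 49.8 and 50.4 CPM in the controls and at 42.6 and 36.7 CPM in the *Cnot3*-cKO libraries, a log2 fold change of -0.34 that did not pass the test (edgeR adjusted p = 0.0580).

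The second list held 10 genes that control let-7 precursors or tail and degrade them, of which 6 were lower and 1 was higher, with a median of -0.40. LIN28 proteins bind the precursor of let-7 and block its processing. *Lin28a* was at 420.0 and 409.3 CPM in the controls and at 198.8 and 191.1 CPM in the *Cnot3*-cKO libraries. The groups were far apart, and *Lin28a* fell by 1.09 on the log2 scale (standard error 0.08, edgeR adjusted p = 3.85e-06). *Lin28b* fell as well, by 0.66 (standard error 0.09, edgeR adjusted p = 0.000284), from 158.5 and 168.8 CPM to 103.4 and 103.7 CPM.

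The terminal uridylyltransferases that add tails to let-7 precursors moved in opposite directions. *Tut7* was at 43.9 and 39.2 CPM in the controls and at 69.2 and 65.0 CPM in the *Cnot3*-cKO libraries, and rose by a log2 fold change of 0.69 (standard error 0.11, edgeR adjusted p = 0.000954). *Tut4* was at 246.1 and 225.5 CPM in the controls and at 177.5 and 174.3 CPM in the *Cnot3*-cKO libraries, and fell by 0.42 on the log2 scale (standard error 0.08, edgeR adjusted p = 0.00386). Reads of *Tut4* per read of *Tut7* were 5.61 and 5.76 in the controls and 2.57 and 2.68 in the *Cnot3*-cKO libraries. *Trim71* (log2 fold change -0.41), *Adar* (-0.40) and *Adarb1* (-0.66) were the other genes called lower. *Tut4* (edgeR adjusted p = 0.0220 and 0.0352), *Trim71* (0.0292 and 0.0227) and *Adar* (0.0917 and 0.0454) were not called without *Cnot3*-cKO replicate 1 and replicate 2, nor was *Adarb1* without replicate 1 (0.0142).

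The let-7 microRNAs share a seed, and their mature sequences are shown with bases 2 to 8 in capitals, from RefSeq on GRCm38.p6, because the *Lin28* genes above and the target genes below are tied to them.
let-7a-5p: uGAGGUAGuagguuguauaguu
let-7c-5p: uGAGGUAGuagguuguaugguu
let-7g-5p: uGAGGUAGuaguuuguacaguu
let-7i-5p: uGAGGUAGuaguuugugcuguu
miR-98-5p: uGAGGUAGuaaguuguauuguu
The 12 hairpin genes of let-7 and miR-98 together held 37 and 22 reads in the controls and 16 and 25 in the *Cnot3*-cKO libraries, and 1 of them passed the expression filter. Across all annotated hairpin genes, 587 of 1178 had 0 reads in the 4 libraries and 76 were tested.

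Of 16 textbook let-7 targets, 7 were lower in *Cnot3*-cKO spermatogonia, with a median of -0.29, and 9 were not called. *Lin28a*, *Lin28b* and *Trim71* stand in the preceding list too, and *Dicer1* is a member, so these 4 calls are not additional. The remaining calls were *Arid3b* (log2 fold change -0.78, standard error 0.11, edgeR adjusted p = 0.000418), *Arid3a* (-0.65) and *Cdc25a* (-0.42). *Cdc25a* was not called without *Cnot3*-cKO replicate 1 (edgeR adjusted p = 0.0446) or replicate 2 (0.0519), nor *Trim71* as above. The match to the let-7 seed, CTACCTC on the transcript strand, was sought in the first 1000 bases of the 3′ UTR in GENCODE M21. It was present in 7.09% of 9196 tested genes with a 3′ UTR of that length and in 0 of the 9 members that could be examined. These targets are known for carrying let-7 sites, so the matches found in 7 of the 15 that could be examined describe how the list was chosen. Beyond that window, *Ago2* held 3 matches in its whole 3′ UTR and *Ago3* held 1. For *Lin28a*, *Trim71* and *Ago3*, 1 match each is shown with its capitals on the 7 bases that pair with the seed.
Lin28a: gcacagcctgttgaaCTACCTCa
Trim71: aacattgcctaagtcCTACCTCa
Ago3: ggcacctgccctcacCTACCTCa
A match describes these letters and not a site in use.

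Noncoding host transcripts of microRNAs were tested in 14 of 15 cases, with a median log2 fold change of 0.37, and 3 were higher and 1 was lower. *Mir99ahg* was at 3.25 and 1.95 CPM in the controls and at 10.2 and 9.81 CPM in the *Cnot3*-cKO libraries. It rose by a log2 fold change of 1.94 (standard error 0.27, edgeR adjusted p = 0.000364). *Rian* (0.61) and *Meg3* (0.88), both from the imprinted *Dlk1-Dio3* region of chromosome 12, were the other genes called higher. *Meg3* stayed called with any 1 library left out, but its log2 fold change then ranged from 0.55 (without control replicate 2) to 1.29. *Mir9-3hg* was at 4.44 and 4.52 CPM in the controls and at 1.90 and 1.68 CPM in the *Cnot3*-cKO libraries, and fell by 1.33 on the log2 scale (standard error 0.28, edgeR adjusted p = 0.00597). Without *Cnot3*-cKO replicate 2 its log2 fold change was -1.24 (edgeR adjusted p = 0.0151). *Mir124-2hg* was not tested and had 2 reads in control replicate 1 and 0 in the other libraries.

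The mature microRNAs encoded within *Mir99ahg* and *Mir9-3hg* are shown with the seed in capitals, since these hosts had the largest changes called in either direction. In *Mir99ahg* they lie on the forward strand at chr16:77598940-77598961 (miR-99a), chr16:77599672-77599693 (let-7c) and chr16:77646279-77646300 (miR-125b), and in *Mir9-3hg* at chr7:79505279-79505301 (miR-9). The hairpins lie outside the exons of the hosts, so that reads counted for the host are not reads of the hairpin.
miR-99a-5p: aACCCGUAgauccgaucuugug
let-7c-5p: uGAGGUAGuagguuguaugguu
miR-125b-5p: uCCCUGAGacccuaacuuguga
miR-9-5p: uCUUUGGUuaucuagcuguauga

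Among 15 genes for loading and turnover of Argonautes, the median was 0.04 and *Hsp90ab1*, which encodes a form of the HSP90 chaperone, was the gene called. It was at 2129 and 1902 CPM in the controls and at 1487 and 1360 CPM in the *Cnot3*-cKO libraries, and fell by 0.50 on the log2 scale (standard error 0.08, edgeR adjusted p = 0.000934). Its edgeR adjusted p was 0.0120 without *Cnot3*-cKO replicate 2. The next smallest p-values were those of the co-chaperone genes *Stip1* (log2 fold change 0.37, edgeR adjusted p = 0.0137) and *Cdc37* (-0.34, edgeR adjusted p = 0.0268), which did not pass the threshold. With 1 library left out, the log2 fold change of *Stip1* ranged from 0.24 to 0.47 and that of *Cdc37* from -0.42 to -0.29.

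Downstream of TNRC6, the list of CCR4-NOT, PAN2-PAN3 and poly(A)-binding protein genes held 15 genes with a median of -0.19. Apart from *Cnot3* itself, *Cnot2* was called, from 202.2 and 207.6 CPM in the controls to 276.0 and 252.5 CPM in the *Cnot3*-cKO libraries. *Cnot2* encodes the subunit that pairs with CNOT3, and it rose by a log2 fold change of 0.37 (standard error 0.08, edgeR adjusted p = 0.00806). *Cnot2* was not called without *Cnot3*-cKO replicate 1 (0.29, edgeR adjusted p = 0.166) or replicate 2 (0.43, edgeR adjusted p = 0.0229). *Pabpc1* was at 531.7 and 372.9 CPM in the controls and at 351.5 and 316.0 CPM in the *Cnot3*-cKO libraries, and its log2 fold change of -0.44 did not pass the threshold (edgeR adjusted p = 0.0327). *Pabpc1* passed it without control replicate 2 (-0.68, edgeR adjusted p = 2.6e-14) or *Cnot3*-cKO replicate 1 (-0.53, edgeR adjusted p = 0.00344), while leaving out control replicate 1 gave -0.18.

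Of 20 partners in repression and decapping, 4 were lower and 16 were not called, with a median of -0.21. The RNA helicase gene *Mov10* was at 224.5 and 223.7 CPM in the controls and at 148.7 and 135.8 CPM in the *Cnot3*-cKO libraries. It fell by 0.66 on the log2 scale (standard error 0.09, edgeR adjusted p = 0.000252). *Lsm14b* (log2 fold change -0.68, standard error 0.09, edgeR adjusted p = 0.000371), *Ddx6* (-0.49, standard error 0.10, edgeR adjusted p = 0.00335) and *Dcp2* (-0.44, standard error 0.09, edgeR adjusted p = 0.00557) were the others. *Dcp2* was not called without *Cnot3*-cKO replicate 1 (-0.36, edgeR adjusted p = 0.0923). DDX6, LSM14B and the decapping enzyme DCP2 act on repressed mRNAs in P-bodies and related granules.

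The PIWI genes form the other branch of the Argonaute family. *Piwil2* was at 814.7 and 840.5 CPM in the controls and at 619.8 and 602.5 CPM in the *Cnot3*-cKO libraries, and fell by 0.44 on the log2 scale (standard error 0.07, edgeR adjusted p = 0.00128). The *Cnot3*-cKO libraries were both below the controls, and without replicate 2 of them the edgeR adjusted p was 0.0217. *Piwil4* had a log2 fold change of -0.45 (edgeR adjusted p = 0.0150) and *Piwil1* of 0.06 (edgeR adjusted p = 0.819), and neither passed the threshold. Other settings and left-out libraries gave 0.02 to 0.18 for *Piwil1*. For *Piwil4* the log2 fold change ranged from -0.54 to -0.37 with 1 library left out, and it was not called under the 4 other scalings. Per kb of exon, *Piwil2* was at 156.5 ± 3.45 CPM in the controls (SD, n = 2), above each of the 4 Argonaute genes described here.

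Other scalings ended some of the calls in these lists. With pan-germ cell scaling *Erh*, *Khsrp*, *Tut4*, *Trim71*, *Adar*, *Arid3a*, *Cdc25a*, *Mir9-3hg*, *Hsp90ab1*, *Ddx6*, *Dcp2* and *Piwil2* kept their negative sign but missed the threshold (edgeR adjusted p from 0.0101 for *Arid3a* to 0.102 for *Adar*). *Tut4*, *Adar*, *Dcp2* and *Cdc25a* also missed it with upper quartile scaling and with library size only, *Trim71*, *Ddx6* and *Meg3* with upper quartile scaling, and *Cnot2* with RLE scaling (edgeR adjusted p from 0.0103 for *Dcp2* to 0.0234 for *Adar*). *Stip1* passed it with library size only (edgeR adjusted p = 0.00521). Among genes that were not called, pan-germ cell scaling moved *Tarbp2* to -0.22 and *Cdc37* to -0.23.

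**Figure D4:**
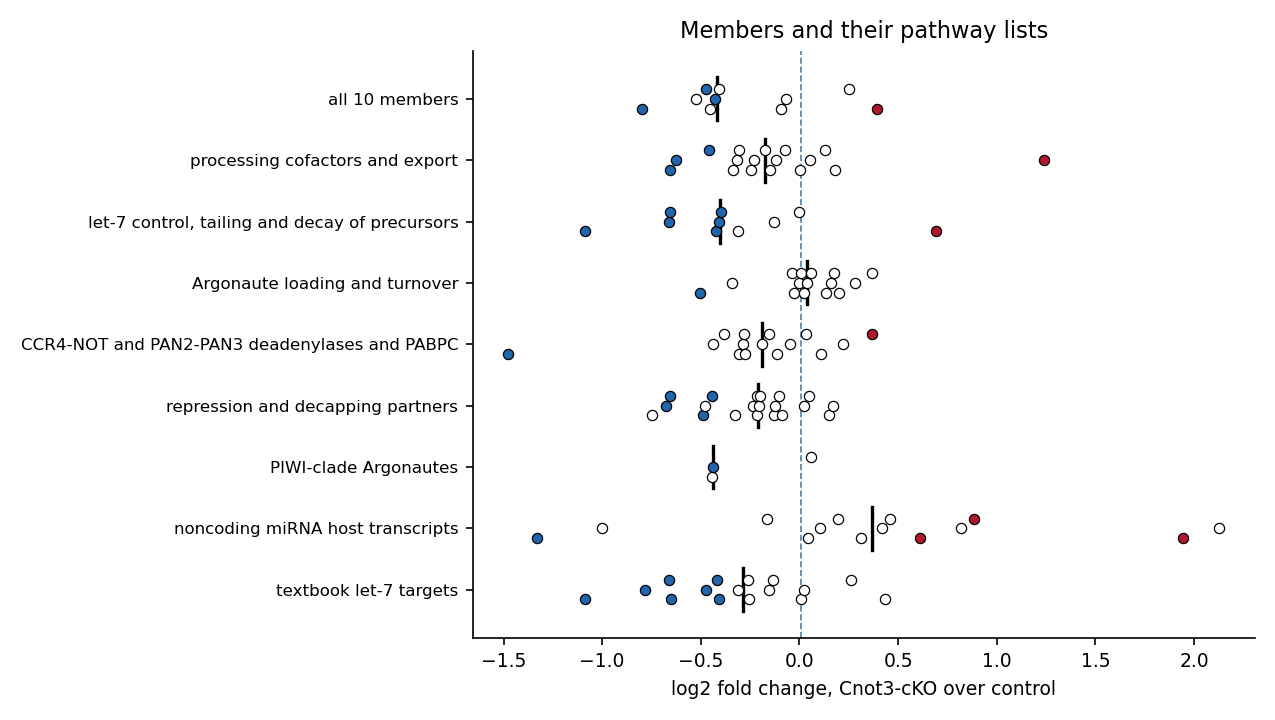
Log2 fold change of *Cnot3*-cKO over control for the 10 members and the genes of 8 pathway lists, with 1 circle per tested gene (red where called higher, blue where called lower and white where not called at an adjusted p of 0.01), a black line at each list's median and a dashed line at the median of all tested genes. The medians run from -0.44 for the PIWI genes to 0.37 for the noncoding host transcripts, and that of the members is -0.42.

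Marker genes of other cell types moved along with these results. In bulk RNA, fewer cells of a type and less RNA per cell cannot be told apart. Of 14 Sertoli cell markers, 12 were higher, with a summed level of 262.5 and 256.4 CPM in the controls and 850.3 and 868.7 CPM in the *Cnot3*-cKO libraries and *Clu* as the most abundant. All 5 Leydig cell markers that were tested were higher, from 367.6 and 322.4 CPM to 830.6 and 896.4 CPM in sum, with *Hsd3b1* most abundant and *Insl3* at 0 reads in every library. All 9 macrophage markers were higher, from 295.0 and 188.5 CPM to 652.8 and 534.4 CPM in sum, with *Mrc1* most abundant. The smaller sums of peritubular myoid markers (19.96 and 24.6 CPM against 35.9 and 43.5 CPM, *Myl9* most abundant) and endothelial markers (33.4 and 32.3 CPM against 44.9 and 53.8 CPM, *Tek* most abundant in 3 of the 4 libraries) held 2 genes called higher each, which were *Acta2* and *Myl9*, and *Pecam1* and *Kdr*. *Acta2* was not called without *Cnot3*-cKO replicate 2 (edgeR adjusted p = 0.0820), nor *Kdr* without *Cnot3*-cKO replicate 1 (0.0199). Their part in the changes of the members was not tested.

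Germ cell markers were measured in the same libraries. The 8 pan-germ cell genes listed in the files summed to 4751 and 5169 CPM in the controls and to 4445 and 4695 CPM in the *Cnot3*-cKO libraries, with *Dazl* most abundant, and *Gcna* was not listed. With a median of -0.07, edgeR called 0 of the 8, while 2 had an unadjusted p under 0.05 and DESeq2 called 1 of them lower. Of 10 SSC markers, *Id4*, *Gfra1*, *Etv5*, *Eomes* and *Bcl6b* were higher and *Zbtb16*, the most abundant in the controls, was lower, and the sums were 931.7 and 800.7 CPM in the controls and 880.5 and 893.9 CPM in the *Cnot3*-cKO libraries. *Eomes* was not called without *Cnot3*-cKO replicate 2 (edgeR adjusted p = 0.0210). Progenitor markers were lower in 4 of 6 (*Neurog3*, *Sox3*, *Rarg* and *Nanos3*), summing to 139.1 and 151.7 CPM against 81.0 and 81.6 CPM, with *Rarg* most abundant in the controls and *Upp1* in the *Cnot3*-cKO libraries. Differentiating markers were lower in 4 of 5 (*Kit*, *Stra8*, *Dmrtb1* and *Sohlh2*), summing to 592.2 and 700.3 CPM against 357.8 and 395.1 CPM, with *Kit* most abundant. The part of these shifts among spermatogonia in the lower levels of *Tnrc6c*, *Dicer1* and *Ago3* was not tested.

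**Figure D5:**
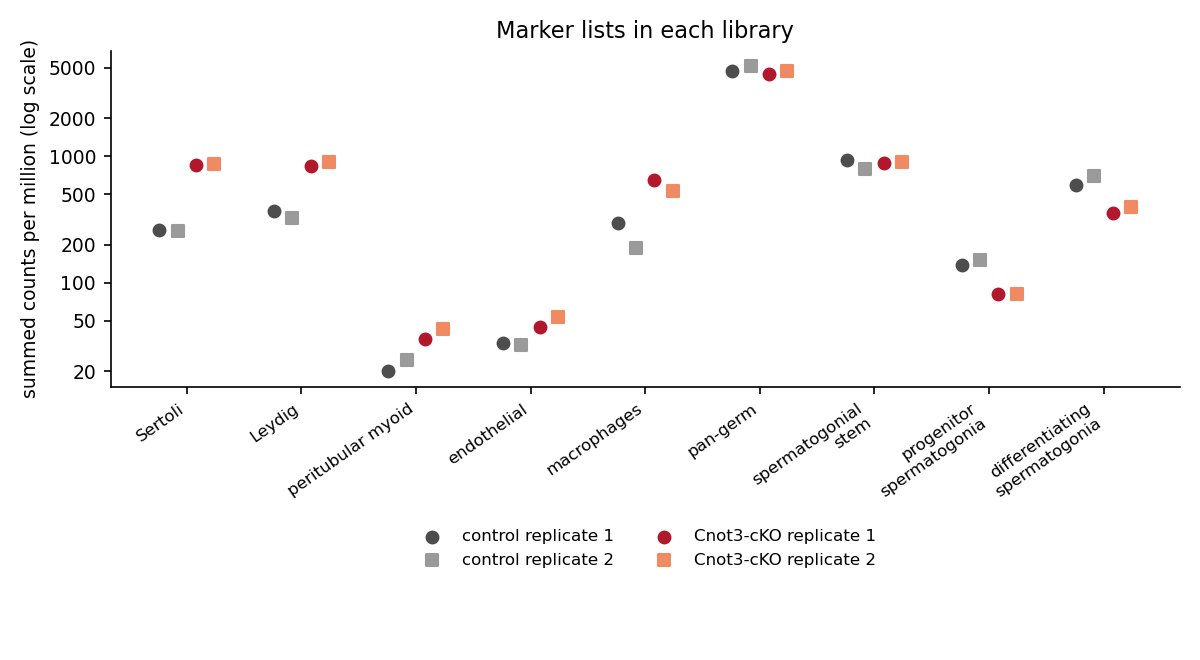
Summed CPM (log axis) of 9 marker lists in each of the 4 libraries, with 1 point per library in the colours of the groups. The Sertoli sums rise from 262.5 and 256.4 to 850.3 and 868.7 CPM, the pan-germ cell sums stay between 4445 and 5169 CPM, and the differentiating sums fall from 592.2 and 700.3 to 357.8 and 395.1 CPM.

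Some members share sequence with other genes, which bears on how their reads could be assigned. Of 7875 words of 50 bases in the annotated transcripts of *Dgcr8*, 1180 also occur in another gene on either strand, and 825 bases of its exons lie opposite those of *Trmt2a*. The share was 3.46% for *Ago2* and 1.53% for *Ago1*, and the 125 shared words of *Ago1* occur in other members. The remaining members had under 1% of their words in any other gene, from 0.228% in *Tnrc6b* to 0.869% in *Tnrc6c*. The strand setting and the treatment of multiple matches were not stated, so the count of *Dgcr8* in particular may hold reads of its antisense neighbour.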

How the data were processed

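RNA from ID4-EGFP+ cells of 2 control and 2 *Cnot3*-cKO mouse testis samples at postnatal day 8 was sequenced from stranded total RNA libraries. Per the labels, the authors used STAR for alignment to mm10 and featureCounts for assignment, and what they deposited are whole read counts for each gene symbol, without normalization. The study's methods name GENCODE M24 and do not state options for strand or multiple matches. Library totals ran from 22192964 to 43378493 reads, so 3 reads, taken as the floor, are 0.0692 to 0.135 CPM, for counting error only.

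The counts were compared in edgeR 4.0.16 (R 4.3.3) with TMM scaling, the default expression filter by group and the quasi-likelihood F test, without covariates, and p-values were adjusted by Benjamini-Hochberg over 23952 genes. Standard errors were the log2 fold change divided by the square root of F. The call required an adjusted p under 0.01. DESeq2 1.42.0 (with limma 3.58.1 loaded by edgeR) and other scalings, filters, a replicate block and leaving out each library were alternatives. The steps were tested on simulated data.

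Members, 8 pathway lists and 9 marker lists were chosen with earlier results of these data known. Named genes were *Cnot3*, the members, in each pathway list those called with a change above 2-fold and the 3 with the smallest p, the most abundant and absent markers, and the 3 genes nearest to *Tnrc6c*. *Khsrp*, *Tarbp2*, *Tut4*, *Trim71*, *Adar*, *Adarb1*, *Dcp2*, *Meg3*, *Arid3a*, *Cdc25a* and the other markers called were named after their values had been seen. Coordinates, lengths and 3′ UTRs came from GENCODE M21 on GRCm38, and microRNA sequences from RefSeq on GRCm38.p6. Figures were made with matplotlib 3.10.9 in Python 3.11.15.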

Additional observations from a re-analysis of the deposited data

How the results depend on the processing

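The counts below compare with 1488 tested genes higher and 1125 lower (965 and 176 above 2-fold), and with 1 member higher and 3 lower. With 1 library left out the remaining library of its group was assumed to vary like the other group, although the controls differed more from each other (chi-square per degree of freedom 20.7 against 6.77, at greater depth), so p-values without a control rest on the closer pair. Tested genes called lower then ranged from 792 to 2286, and from 217 to 271 with a fold change above 2. Members called lower ranged from 2 to 5 and members called higher from 0 to 1. *Tnrc6b*, not called, ranged from -0.22 (without control replicate 2) to 0.070 (without control replicate 1).

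Under the other settings, pan-germ cell scaling left 410 tested genes lower (106 above 2-fold) and 1 member lower, and *Dgcr8* (0.020) and *Tnrc6b* (0.042) changed sign without being called. Without an expression filter, 2006 tested genes were lower (285 above 2-fold), and 5 members were lower, as with DESeq2, the gained members being *Ago1* and *Tnrc6a* in both. Over all genes, DESeq2 called 1668 lower. DESeq2 and the unfiltered fit both called *Cdc37*, *Pabpc1* and *Piwil4* lower too. The unfiltered fit also gained *Stip1* (higher), and robust dispersions gained *Ago1* (lower) and *Stip1* (higher). At an adjusted p under 0.05, 2659 tested genes were higher and 2266 lower (1452 and 284 above 2-fold), and 6 members were lower. A test against a fold change of 2 called 87 higher and 5 lower. The cause of these differences was not tested.

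A replicate block gave 5 members lower, again with *Ago1* and *Tnrc6a*. It also brought *Stip1* (higher, edgeR adjusted p = 0.00445), *Pabpc1* (lower, 0.00122) and *Piwil4* (lower, 0.00591) past the threshold. The labels do not say whether libraries with the same replicate number shared a batch or day. The deviations of the libraries numbered 1 had a correlation of 0.054 over 18240 genes. With the block 1968 tested genes were higher and 1637 lower.

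Over the members, 84 of 100 fold changes under other settings and 30 of 40 with 1 library left out kept their direction and side of the threshold. *Tnrc6c* was called in all 13 refits, between -0.83 and -0.68. Over the other named genes this held for 459 of 500 and 172 of 200. With 2 libraries per group, a gene that was not called cannot be taken as unchanged.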
